A study of Mus musculus with 6 samples.

Results

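The levels of 8 genes of heart muscle or epithelium were followed through 6 RNA sequencing libraries of a mouse aortic endothelial cell line: Gata4, Gata6, Tnnt2, Krt8, Krt18, Krt19, Sprr1a and Aqp5. They were chosen by name, with earlier results of these libraries known, so their levels and their differences between lines describe the choice and carry no test. All 8 were among the 21675 genes listed. The filter on low counts was passed by 6 of the 8, and Krt8 and Krt18 did not pass it. The 6 that passed were analysed among 12729 genes.

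GATA4 and GATA6 are zinc finger transcription factors that bind GATA motifs, and together they specify and maintain cardiac muscle. Tnnt2 encodes cardiac troponin T, which anchors the troponin complex to tropomyosin on the thin filament and is used as a marker of heart muscle. Keratins form intermediate filaments only as pairs of a type I and a type II chain. Krt8 is the type II chain and Krt18 and Krt19 are type I chains of simple epithelia such as gut, ducts and mesothelium. Sprr1a is a small proline-rich protein that is cross-linked into the cornified envelope of keratinocytes, and Aqp5 is the water channel of salivary, lacrimal, airway and alveolar epithelium. None of them is an endothelial marker.

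The study asked what loss of the splicing repressor Ptbp1 does to such cells before and after TNF. The line, listed as Fn AB+/-, had been immortalised with SV40 under tetracycline control (TetOn-SV40), expanded with 2 µg/mL doxycycline and moved to DMEM with 10% serum without it, in all groups. WT is the line itself, KO is 1 single-cell clone with a CRISPR deletion of Ptbp1, and Rescue carries a human PTBP1 cDNA after that deletion. Each was sequenced once without TNF and once after TNF at 30 ng/mL, with 1 library per group and no replicates, so a property of the clone and an effect of Ptbp1 cannot be told apart. The RSEM counts summed to between 19598773 and 21626838 per library.

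For 4 of the 6 libraries, the label and the name of the deposited file give different groups. The file names, in which "basal" was read as WT, set the groups below. In these names the order WT, WT with TNF, KO, KO with TNF, Rescue and Rescue with TNF corresponds to the labels WT, KO, Rescue, WT with TNF, KO with TNF and Rescue with TNF. Ptbp2, the paralogue that Ptbp1 represses, checks the grouping. In CPM (counts scaled to a common library size by TMM factors), with each pair given without and then with TNF, its levels in the named groups were 38.2 and 37.8 for WT, 218 and 192 for KO, and 67.6 and 76.5 for Rescue. The CPM of Ptbp1 itself were 338 and 423 for WT, 387 and 424 for KO, and 173 and 186 for Rescue, so the deletion did not lower the transcript in the libraries named KO. The TNF target Ccl2 was higher in the library named with TNF in all 3 lines, by 5.46, 3.52 and 5.03 on the log2 scale in WT, KO and Rescue. The libraries labelled Rescue and WT with TNF thus held the highest Ptbp2, and high Ccl2 was found in the library labelled KO, a group without TNF. Every direction given for the named groups rests on this reading of the file names.

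Endothelial markers were scarce in every library. Of 19 listed markers, 5 (Cldn5, Emcn, Icam2, Robo4 and Tie1) had 3 counts or fewer in each library, and the listed markers summed to between 281.3 and 439.6 CPM, most of it Eng. The 20 listed smooth muscle and fibroblast markers, which include Col1a1, Col1a2 and Acta2, summed to between 13212.5 and 30764.6 CPM. The part of other cell types in the levels below was not tested. In bulk RNA, fewer cells that express a gene and less RNA per cell cannot be told apart.

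Sequences are shown for the genes whose junction reads missed the annotated start, described further on, and for 1 promoter. For Tnnt2, the first line follows an annotated transcript on the plus strand of GRCm38 within chr1:135840875-135845584. It gives the 38-nt exon that opens with the start codon and the 11-nt exon after it (both lower case), and then the first 30 bases of the 90-nt exon that follows (capitals). The second line is that 90-nt exon whole, chr1:135845555-135845644, which is where the counted junctions of Tnnt2 began. The third line is a cassette exon of 9 nt in capitals between its neighbours in lower case, within chr1:135849431-135850740.
Tnnt2 start codon exon and the next annotated exons: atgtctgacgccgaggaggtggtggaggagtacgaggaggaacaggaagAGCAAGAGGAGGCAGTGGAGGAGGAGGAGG
Tnnt2 exon with the first junction reads: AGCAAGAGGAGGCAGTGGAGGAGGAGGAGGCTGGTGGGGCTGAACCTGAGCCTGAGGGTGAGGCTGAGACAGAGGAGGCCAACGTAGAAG
Tnnt2 exon of 9 nt: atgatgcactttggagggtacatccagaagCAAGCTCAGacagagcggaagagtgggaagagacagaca

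For Aqp5, both lines end in the same first 60 bases of exon 2, in capitals, on the plus strand of chromosome 15. In the annotated join (within chr15:99591575-99592721) they follow coding exon 1, and in the contiguous genome (chr15:99592602-99592721) they follow the last bases of intron 1, which close with the acceptor site cag.
Aqp5 exon 1 joined to exon 2: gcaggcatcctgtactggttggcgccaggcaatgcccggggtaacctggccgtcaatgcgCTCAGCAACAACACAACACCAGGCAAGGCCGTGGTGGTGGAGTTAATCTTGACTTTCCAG
Aqp5 intron 1 running into exon 2: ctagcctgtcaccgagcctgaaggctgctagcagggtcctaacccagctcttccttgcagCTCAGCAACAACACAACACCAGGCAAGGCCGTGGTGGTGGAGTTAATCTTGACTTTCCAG

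For Sprr1a, a gene known to respond to AP-1, the 250 bases before the RefSeq start (GRCm38.p6, chr3:92485882-92486131, minus strand) are shown with matches to the AP-1 motif in capitals.
Sprr1a promoter: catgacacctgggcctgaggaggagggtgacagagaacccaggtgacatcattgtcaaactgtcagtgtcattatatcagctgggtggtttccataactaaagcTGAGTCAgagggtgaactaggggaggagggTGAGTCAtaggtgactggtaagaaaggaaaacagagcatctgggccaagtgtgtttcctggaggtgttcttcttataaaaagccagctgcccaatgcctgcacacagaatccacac

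Gata4 (chr14:63198922-63271692, minus strand in GENCODE vM21) was low in the libraries named WT and stayed high in both other lines. It was at 2.54 CPM without TNF and 2.35 with TNF in WT, 29.6 and 20.8 in KO, and 35.4 and 28.3 in Rescue, with 95% counting intervals of 1.89 to 3.35 in the library named WT and 27.3 to 32.1 in that named KO. Both KO libraries and both Rescue libraries lay above both WT libraries. The fitted log2 fold was 3.35 for KO minus WT and 3.69 for Rescue minus WT, and Rescue minus KO was 0.35. Gata4 was thus not lower in the line with the PTBP1 cDNA than in the KO clone, while Ptbp2 was. Of all genes tested, 33% passed the threshold for KO minus WT (edgeR's quasi-likelihood test, Benjamini-Hochberg adjusted p under 0.05), and both KO libraries lay above both WT libraries for 27.1%.

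Gata6, one of several family members that this line already expressed (Gata2, Gata3 and Trps1 among the others), went the other way. It was at 57.9 CPM without TNF and 60.3 with TNF in WT, 26.2 and 21.6 in KO, and 29.3 and 36.4 in Rescue. Both KO libraries lay below both WT libraries, an order found for 27.2% of all genes, and both Rescue libraries lay between the KO and WT libraries. The log2 fold was -1.31 for KO minus WT, 0.46 for Rescue minus KO and -0.85 for Rescue minus WT. Per length, Gata6 exceeded Gata4 in the library named WT, at 36.5 TPM (the transcript abundance per length that RSEM gives) against 1.5. In the library named KO the TPM of both was close, at 16.2 for Gata6 and 17.2 for Gata4.

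Tnnt2 (chr1:135836354-135852260, plus strand) was highest in the KO library with TNF. It was at 3.71 CPM without TNF and 2.02 with TNF in WT, 17.8 and 35.2 in KO, and 6.26 and 8.02 in Rescue. The lines did not overlap: both Rescue libraries lay between WT and KO. The log2 fold was 3.15 for KO minus WT, -1.86 for Rescue minus KO and 1.29 for Rescue minus WT.

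Krt8 (chr15:101996698-102004482, minus strand) and Krt18 (chr15:102028180-102032027, plus strand), the obligate pair of simple epithelia, were near or at 0 throughout. Krt8 had 2, 1, 2, 4, 1 and 0 counts in the libraries named WT, WT with TNF, KO, KO with TNF, Rescue and Rescue with TNF. Krt18 had 0, 0, 2, 11, 0 and 0 counts in the same order. The 11 counts of Krt18 in the KO library with TNF are 0.557 CPM (95% counting interval 0.278 to 0.996), and a count of 0 allows up to 3 counts, or 0.133 to 0.152 CPM. No direction was read for either gene.

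Krt19 (chr11:100140810-100148665, minus strand), which pairs with Krt8 in ducts and mesothelium, was present while Krt8 was near 0. Krt7, another keratin of simple epithelia, had 27 and 39 counts in WT, 16 and 13 in KO, and 28 and 29 in Rescue. Whether Krt19 had another partner was not tested. Krt19 was at 27.5 CPM without TNF and 11.1 with TNF in WT, 19.3 and 19.5 in KO, and 1.11 and 0.594 in Rescue. The KO libraries lay inside the range of the WT libraries, and both Rescue libraries, with 25 and 12 counts, lay far below the other 4. How many of all genes had this order was not counted. The log2 fold was 0.13 for KO minus WT, whereas it was -4.57 for Rescue minus KO and -4.43 for Rescue minus WT. The sign of KO minus WT hung on single libraries: it was -0.44 without the WT library with TNF and -0.48 without the KO library with TNF. Krt19 was thus low in the line with the cDNA and not in the KO clone.

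Sprr1a (chr3:92483952-92485895, minus strand) was at 1.88 CPM without TNF and 1.39 with TNF in WT, 26.8 and 40.4 in KO, and 4.84 and 11.6 in Rescue. Both Rescue libraries lay between the other lines. The log2 fold was 4.33 for KO minus WT, -2.09 for Rescue minus KO and 2.24 for Rescue minus WT. Per length it was at 87.2 TPM in the KO library by RSEM, above 90.8% of listed genes.

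Aqp5 (chr15:99590782-99594829, plus strand) was at 75.1 RSEM TPM in the KO library, above 89.3% of listed genes. The order of these 2 genes turned with the quantification: in the second deposited one, Aqp5 was at 114.2 TPM and Sprr1a at 67.8 in that library. It was at 7.06 CPM without TNF and 2.98 with TNF in WT, 54.2 and 62.3 in KO, and 32.9 and 10.4 in Rescue. Rescue again lay between the other lines, but its 2 libraries were far apart. The log2 fold was 3.70 for KO minus WT, -1.65 for Rescue minus KO and 2.05 for Rescue minus WT.

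**Figure D1:**
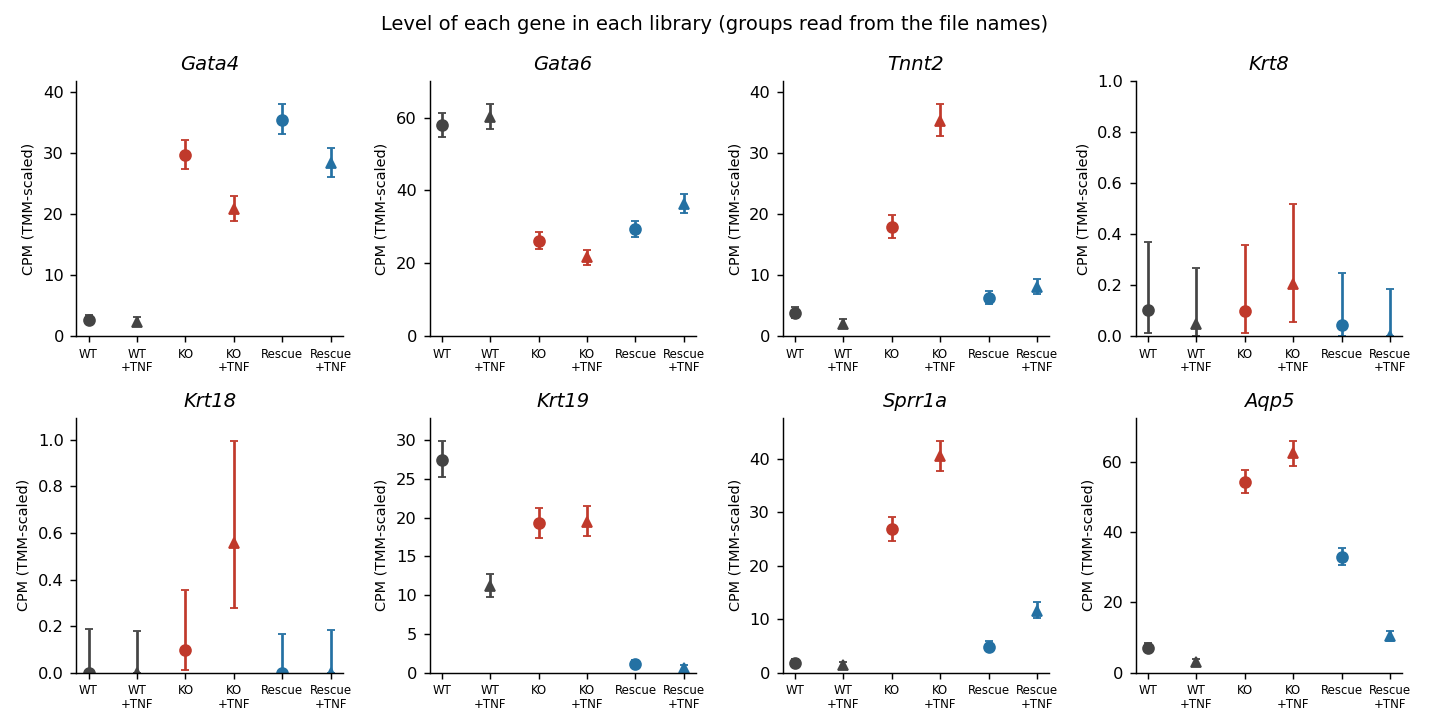
Level of each of the 8 genes in each library, in CPM scaled by TMM factors on a linear axis starting at 0, with groups read from the file names; circles are libraries without TNF, triangles those with TNF, and bars are 95% counting intervals. Gata4 stays near or above its KO level in Rescue (35.4 and 28.3 CPM), Krt19 falls to 1.11 and 0.594 CPM there, and Krt8 and Krt18 stay under 1 CPM everywhere.

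Of the 6 genes past the filter, 4 (Gata4, Tnnt2, Sprr1a and Aqp5) had both KO libraries above both WT libraries and 1 (Gata6) had both below. Both Rescue libraries lay strictly between KO and WT for 4 of the 6 (Gata6, Tnnt2, Sprr1a and Aqp5), against 9.74% of all genes tested. Since these genes were picked with their levels known, the counts describe them only. The 3 line contrasts share libraries, and 20.4% of all genes passed the threshold for Rescue minus KO and 24.6% for Rescue minus WT. Single libraries set side by side gave KO over WT ratios for Tnnt2 of 4.80-fold without TNF (log2 2.26, 95% counting interval 1.90 to 2.65) and 17.4-fold with TNF (4.13, 3.67 to 4.61). For Aqp5 they were 7.68-fold (2.94, 2.69 to 3.21) and 20.9-fold (4.39, 4.02 to 4.78). Counting error alone did not span the gap between these ratios, and there was no replicate to set it against.

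**Figure D2:**
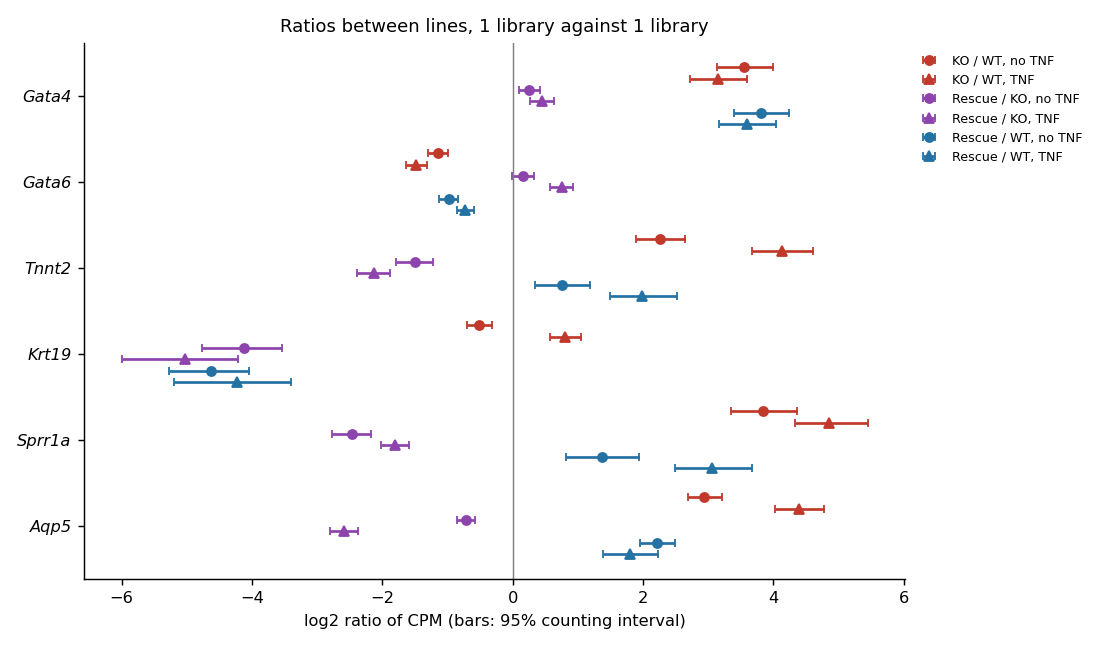
Log2 ratio of CPM between lines, 1 library against 1 library, for the 6 genes past the filter; circles compare libraries without TNF, triangles those with TNF, and bars are 95% counting intervals that cover counting error only. For Gata4 the Rescue over KO ratios are near 0 (0.26 and 0.45) and for Krt19 they are at -4.12 and -5.04.

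With the groups of the labels in place of the file names, the folds of all 6 genes changed. The sign of KO minus WT turned for 5 of them and stayed for Gata4, whose fold shrank from 3.35 to 0.50. KO minus WT became 0.21 for Gata6, -1.98 for Tnnt2, -3.13 for Krt19, -2.33 for Sprr1a and -1.0 for Aqp5. In that fit, 0 of 12729 genes (0%) passed for KO minus WT by edgeR and 0 by DESeq2, while 29 had an unadjusted edgeR p under 0.05.

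The splice junctions, which were not used to choose the genes, gave a view of where the reads of Tnnt2 lay. Reads across a junction that leaves an exon with an annotated start codon numbered 0 for Tnnt2 in each of the 6 libraries. The first junction with steady reads left the 90-nt exon printed above, which lies downstream of the start codon exon. It had 6 and 4 reads in the libraries named WT, 42 and 105 in those named KO, and 19 and 18 in those named Rescue, without and with TNF. Only 1 read, in the Rescue library without TNF, joined that exon to anything upstream, and no read was listed between the exons before it. The top junction of Tnnt2 had 25 and 17 reads in WT, 94 and 200 in KO, and 45 and 42 in Rescue. The junction reads listed thus began at the 90-nt exon in every line. The upstream exons include one of 11 nt, and reads over such exons may escape a junction count. Other coding genes with at least 40 reads on the top junction held 198 annotated exons of at most 12 nt. Of these, 58.1% had any read in the KO library. Whether the rest were skipped or their reads went uncounted was not tested. The Tnnt2 count of the quantification that the junctions come from was 0.95 times the RSEM count in the KO library, where that ratio was 1.36 for all counts and between 1.36 and 1.48 for Gata4, Gata6, Krt19, Sprr1a and Aqp5. The Tnnt2 ratio lay under that of all counts in 5 of the 6 libraries, at 0.95 to 1.14, and above it in WT with TNF, at 1.74 from 42 RSEM counts. Whether Tnnt2 transcripts lacked their upstream exons or the reads over them went uncounted was not tested.

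Aqp5 showed a similar gap between exons 1 and 2. The annotated junction had 0, 1, 0, 0, 0 and 1 reads in the libraries named WT, WT with TNF, KO, KO with TNF, Rescue and Rescue with TNF. Reads running from intron 1 straight into exon 2, as in the second Aqp5 line above, numbered 15, 6, 110, 86, 60 and 17 in the same order. The next junction, from exon 2 to exon 3, was crossed by 41, 9, 350, 320, 197 and 62 reads. In the KO and Rescue libraries the Aqp5 reads thus nearly lacked the splice from coding exon 1, which encodes the first part of the channel. The WT library with TNF had 1 such read against 9 from exon 2 to exon 3, too few to describe. GENCODE lists a pair of non-coding Aqp5 transcripts that begin inside intron 1 and run on into exon 2. They begin 1078 and 1666 bases after the gene's annotated start. The reads counted cover only the border of intron 1 and exon 2, and where their transcripts began was not tested. Exon 2 of Aqp5 has a second annotated acceptor a few bases in. Of 660 exons in other coding genes with a pair of acceptors at most 8 nt apart, 0.303% had reads entering them at or under 2% of those leaving, in the KO library. The Aqp5 count of this quantification was 1.38 times the RSEM count there, close to the 1.36 of all counts.

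A gap of this size was rare. Among protein-coding genes with at least 3 junctions and at least 40 reads on the top one, the reads leaving start codon exons were at most 2% of the top junction for 0.862% of 7776 genes in the KO library and 0.916% of 7643 in the KO library with TNF. The median was 59.7% and 59.4%. In the other 4 libraries the share was 0.855% (WT), 0.906% (WT with TNF), 0.908% (Rescue) and 0.829% (Rescue with TNF). Tnnt2 and Aqp5 were at 0% in the 2 KO libraries and in Rescue without TNF, where both reached 40 reads, and at 0% and 1.61% in Rescue with TNF. In the WT libraries Tnnt2 had at most 25 reads on its top junction. Aqp5 had 9 reads there in WT with TNF, and 41 in WT but under 3 junctions listed, so neither gene met the minimum in WT. Reads that start in an exon outside the annotation would not be listed, and this was not tested.

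Krt19 and Gata6 had reads leaving the exon with their annotated start codon. In Krt19 the junctions leaving the start codon exon reached 76.1% and 73.6% of the top junction in WT and 76.6% and 52.8% in KO. In Gata6 the same share ranged from 46.1% to 68.8% over the 6 libraries. Gata4, which has several annotated start codon exons, had 110 and 70 reads leaving them in KO, 137 and 98 in Rescue, and 9 and 7 in WT. Most of these left an exon 67103 bases from the gene start (83 and 51 in KO), and the junctions at 108 and 635 bases had at most 1 read in each library. Krt8 and Krt18 had too few junction reads to describe. Sprr1a, whose only junction lies between its 2 exons, had 12 and 18 reads in WT, 225 and 353 in KO, and 64 and 92 in Rescue.

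**Figure D3:**
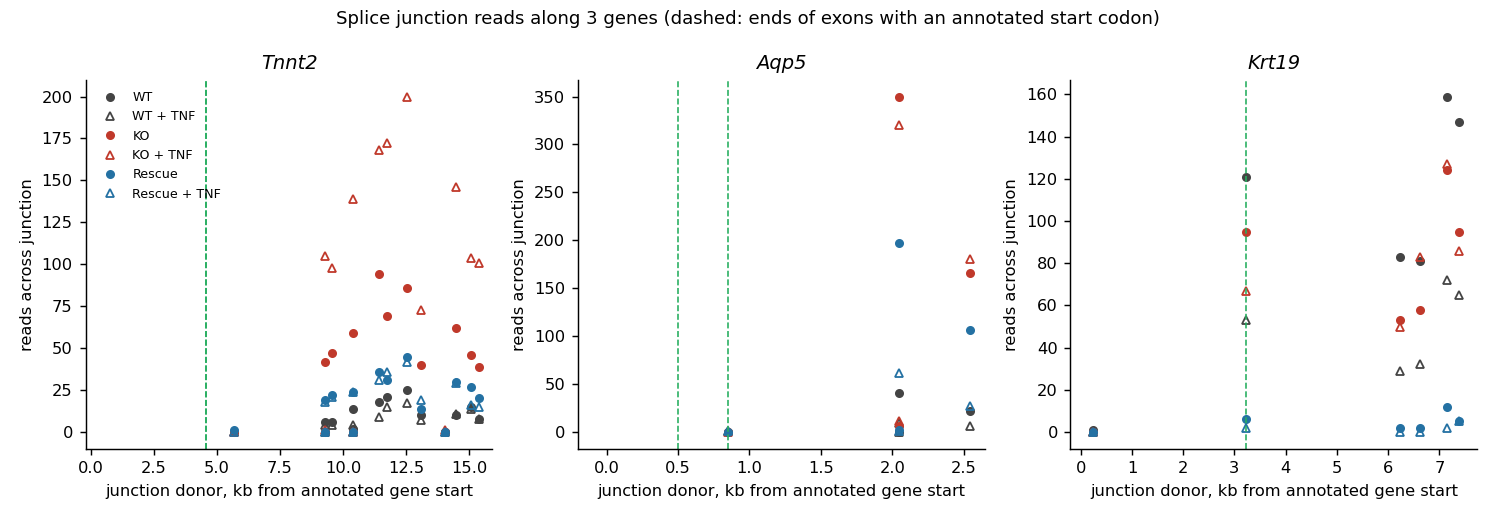
Reads across each splice junction of Tnnt2, Aqp5 and Krt19, by distance in kb of the junction's donor site from the annotated gene start; filled circles are libraries without TNF, open triangles those with TNF, colours are the lines, and dashed lines mark the ends of exons that hold an annotated start codon. Krt19 has reads at its dashed line (121 in WT, 95 in KO), whereas Tnnt2 has none there and Aqp5 has at most 1.

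Exon inclusion could be followed in Gata6 and Tnnt2 alone. These genes held all 7 splicing nodes with at least 20 estimated reads in every library, and 0 of the 7 had a psi (the share of reads that include the node, from 0 to 1) that ranged over 0.1 or more. The 9-nt exon of Tnnt2 printed above was skipped by 10 and 7 reads in WT, 40 and 73 in KO, and 14 and 19 in Rescue. A single read, in the KO library with TNF, left that exon, and the limit on very short exons given above holds for it too.

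TNF did not move these genes alike. Over the 3 lines, edgeR's quasi-likelihood test called 0 of the 6, against 22% of all genes tested, with 1 (Gata4) at an unadjusted p under 0.05. The test has 2 residual degrees of freedom, which come from the spread of the TNF response between lines and not from replicate cultures. Gata4 changed by -0.36 ± 0.11 (SE, adjusted p = 0.0696 by edgeR) and was lower with TNF in 3 of 3 lines. In WT, however, with 50 and 49 counts, the counting interval spanned no change (log2 -0.11, interval -0.71 to 0.49). Gata6 was at 0.04 ± 0.12 (adjusted p = 0.844 by edgeR), with 1 of 3 lines lower. DESeq2 called Aqp5 (-0.89, adjusted p = 0.0467), and the second deposited quantification called Gata4 (-0.38, edgeR adjusted p = 0.0423).

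Tnnt2 was at 0.32 ± 0.34 (adjusted p = 0.510 by edgeR), with lines that split. It was 1.84-fold lower with TNF in WT, 1.98-fold higher in KO and 1.28-fold higher in Rescue, and each counting interval left out no change. Sprr1a was at 0.64 ± 0.28 (adjusted p = 0.154 by edgeR), 1.51-fold higher in KO and 2.39-fold higher in Rescue, while the interval in WT spanned no change. Among all genes, 4.4% were at least 2-fold higher with TNF in Rescue, as Sprr1a was.

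Aqp5 was at -0.82 ± 0.39 (adjusted p = 0.184 by edgeR). It was 2.37-fold lower with TNF in WT and 3.16-fold lower in Rescue, but 1.15-fold higher in KO. Krt19 was at -0.67 ± 0.30 (adjusted p = 0.161 by edgeR), 2.46-fold lower in WT and 1.01-fold higher in KO. Aqp5 and Krt19 were thus at least 2-fold lower with TNF in WT, which 6.12% of all genes were, and Aqp5 alone of the 6 in Rescue, which 4.44% were. The TNF values of both genes turned on which line was in the fit. In KO, Aqp5 moved slightly the other way and the counting interval of Krt19 spanned no change. Without the KO library without TNF, Aqp5 was at -1.52 and Krt19 at -1.25. Without the KO library with TNF they were at -1.51 and -1.24. Without either Rescue library Aqp5 was at -0.40 and -0.39 (edgeR adjusted p = 0.572 and 0.579). Without either WT library Krt19 was at -0.14 and -0.15 (edgeR adjusted p = 0.692 and 0.680).

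**Figure D4:**
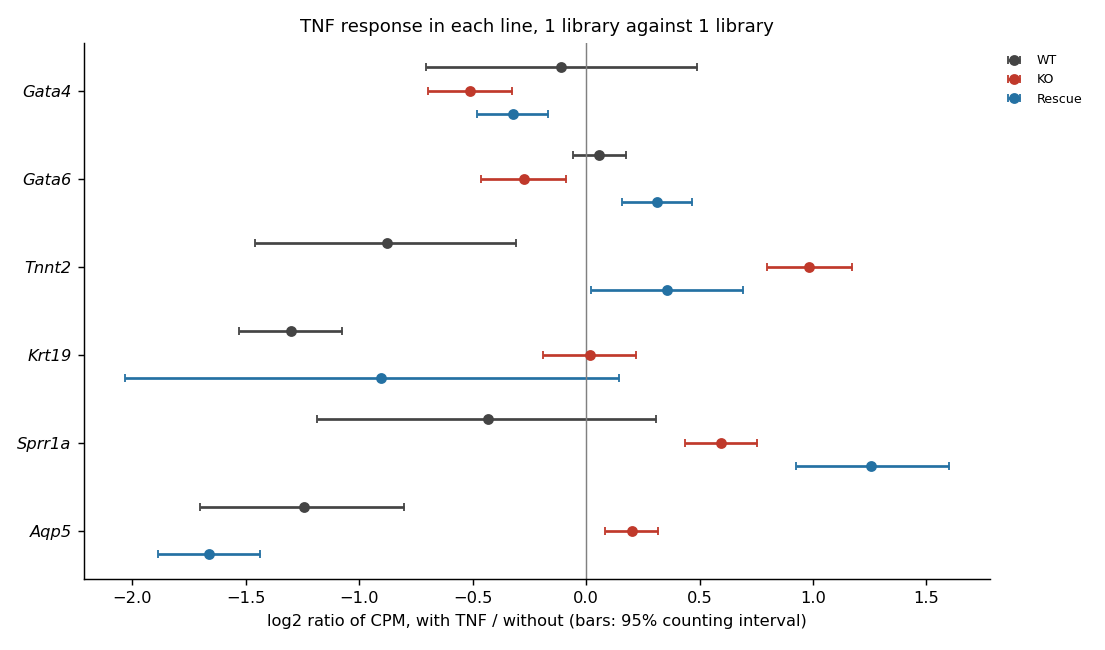
Log2 ratio of CPM with over without TNF in each line, 1 library against 1 library, for the 6 genes past the filter; bars are 95% counting intervals that cover counting error only. Aqp5 lies at -1.25 in WT, 0.20 in KO and -1.66 in Rescue, and Tnnt2 at -0.88, 0.98 and 0.36.

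Other cardiac genes were counted in both directions, beside 33% of all genes called for KO minus WT and 16.8% called as higher. Each p for KO minus WT, here and below, comes from the same fit with 2 residual degrees of freedom and 1 library per group. It sets the line difference against its spread between treatments and does not measure spread between clones or cultures. Of 17 listed cardiac transcription factors, 5 (Gata5, Hand1, Hand2, Irx4 and Tbx5) had 3 counts or fewer in every library, and 11 were tested for KO minus WT. Of these 11, 3 were higher and 2 lower, which includes the chosen Gata4 (higher) and Gata6 (lower), with a median log2 fold of 0.22 beside -0.0 for all genes. Isl1, a factor of cardiac progenitors, rose by 2.68 ± 0.33 (edgeR adjusted p = 0.00677). It had 18 and 8 counts in WT and 93 and 69 in KO, without and with TNF. Nkx2-5, the homeobox partner of GATA4 in the heart, rose by 1.44 ± 0.20 (edgeR adjusted p = 0.00916). Hopx fell by 1.45 (edgeR adjusted p = 0.00817). Nkx2-5 had 54 and 56 counts in WT, 165 and 132 in KO and 1 in each Rescue library, so that it was lost in Rescue while Gata4 was not.

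Of 33 listed genes of the sarcomere and cardiac calcium handling, 13 had 3 counts or fewer in every library, among them the cardiac myosin chains Myh6, Myh7, Myl2, Myl3 and Myl7, cardiac actin Actc1 and the calcium release channel Ryr2. Of the 13 tested, 5 were higher in KO than in WT (the chosen Tnnt2 among them) and 3 lower, with a median of 0.50, against the same shares of all genes. The calcium buffer Casq2 rose by 1.28 ± 0.36 (edgeR adjusted p = 0.0478) from under 1 CPM. The Z-disc protein Ldb3 rose by 1.17 ± 0.09 (edgeR adjusted p = 0.0029) and troponin C, Tnnc1, by 1.13 ± 0.26 (edgeR adjusted p = 0.0297). The L-type calcium channel Cacna1c fell by 0.88. The titin gene Ttn fell by 2.35 (edgeR adjusted p = 0.0467), on 11 and 56 counts in WT and 6 and 5 in KO, without and with TNF. Cardiac troponin I, Tnni3, had 19 and 16 counts in WT, 8 and 5 in KO and 7 and 0 in Rescue.

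Among 12 GATA factors and cofactors, 8 were tested and 3 were higher and 3 lower in KO than in WT, with a median of -0.20. These 6 include the chosen Gata4 and Gata6, and 33% of all genes were called. Gata3 rose by 0.83 ± 0.22 (edgeR adjusted p = 0.0446) and the cofactor Zfpm1 by 0.81 ± 0.15 (edgeR adjusted p = 0.0171). Gata2, the factor of blood and endothelium, fell by 0.51, and the atypical member Trps1 fell by 0.76.

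Few keratins could be tested. Of 6 simple epithelium keratins, 2 were tested and neither passed for KO minus WT, where 33% of all genes were called. For Rescue minus KO 1 of the 2 passed, which was the chosen Krt19, beside 20.4% of all genes. Of 21 stratified epithelium keratins, 12 had 3 counts or fewer in every library and 6 were tested. For KO minus WT, 1 of the 6 was called higher and 1 lower, near the same 33% of all genes. Krt13, a keratin of mucosa, rose by 1.73 ± 0.47 (edgeR adjusted p = 0.0449). Krt17 passed as lower with 1 and 42 counts in WT, 0 and 0 in KO, and 0 and 11 in Rescue, so its call rested on the WT library with TNF.

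Many epithelial identity genes were near 0, while some, such as Cldn1 and Klf5, were expressed. Of 30 listed, 15 had 3 counts or fewer in every library, among them Esrp1, Elf3, Ovol2 and the claudins Cldn3, Cldn4 and Cldn7. Epcam had 4 counts in 1 library and 0 in the other 5, and Cdh1, which encodes E-cadherin, had 16 and 2 counts in WT, 11 and 2 in KO, and 8 and 0 in Rescue. Of 9 tested, 0 were higher and 1 lower in KO by edgeR, where 33% of all genes were called, and the median was -0.67. The lower one was the tight junction protein Cgn (-2.56 ± 0.59, edgeR adjusted p = 0.0304). Cgn had 8 and 185 counts in WT and 6 and 19 in KO, without and with TNF, so its fold rested on the libraries with TNF. Mesothelial markers, which Krt19 could belong to, were low as well: Wt1, Upk1b, Bnc1, Calb2, Gpm6a and Rspo1 had 3 counts or fewer in every library. The listed 15 summed to between 8.2 and 39.9 CPM, and Krt19 itself was 27.5 of the 39.9 CPM in WT without TNF. Among the others, Cldn15 had 134 and 21 counts in WT, 173 and 193 in KO, and 168 and 47 in Rescue. Msln had between 15 and 93 counts.

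Around Sprr1a, 26 cornified envelope genes were in the tables, and 12 had 3 counts or fewer in every library, among them involucrin, Ivl. Of 11 tested for KO minus WT, 8 were called higher and 1 lower, beside 16.8% of all genes called higher. That count carries no weight for the list, since Sprr1a was chosen with its levels known and Sprr2k, Lor, Sprr2a1 and Sprr2a2 passed the filter on low counts only through libraries where they were high. Sprr2k had 1 and 0 counts in WT, 26 and 19 in KO, and 7 and 2 in Rescue. Loricrin, Lor, had 1 and 0 counts in WT, 23 and 11 in KO, and 12 and 6 in Rescue. Sprr2a1 and Sprr2a2 had identical counts, 2 and 0 in WT and 24 and 10 in KO, since reads of these near-identical copies could not be split. The others were the annexin Anxa1 (1.00 ± 0.23, edgeR adjusted p = 0.0298) and the calcium-binding S100a10 (0.72 ± 0.12) and S100a11 (0.59 ± 0.08), which many cell types outside the skin also express. Periplakin, Ppl, fell by 3.09. For Rescue minus KO 0 were higher and 5 lower by edgeR, beside 1355 lower of all 12729 genes. The 5 were Sprr1a, Sprr2k, Anxa1, S100a10 and S100a11. This count carries no weight either, since the limits on Sprr1a and Sprr2k hold here too. In the KO library Sprr1a, at 26.8 CPM, lay above Sprr2k at 1.28 and below Anxa1 at 1035, S100a11 at 702 and S100a10 at 533.

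The motif TGANTCA, the AP-1 site, was searched on both strands in the 250 bases before each RefSeq start. Sprr1a held 2 matches, at positions -146 and -116 from its start, and 6.75% of 32851 mouse promoters held at least 1. The 5 of the 8 genes with a RefSeq promoter in the table were Tnnt2, Krt8, Krt18, Sprr1a and Aqp5, and the other 4 of these held 0 matches. The GATA motif (an A or T, then GATA, then an A or G, on both strands) was found in 26.5% of promoters, with 0 matches for Sprr1a, Krt18 and Aqp5, 1 for Krt8 and 1 in 1 of the 2 promoters of Tnnt2. A match is a string of letters and not evidence of binding. Of 9 AP-1 factors tested, 0 were higher and 1 lower in KO than in WT by edgeR, Fosl2 (-1.02 ± 0.15, adjusted p = 0.00942). Of all genes, 33% were called for KO minus WT and 16.8% were called higher.

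Of 12 aquaporins, 4 were tested. Aqp1, the water channel of vessels, was the most abundant, at 239 and 88.9 CPM in WT, 298 and 231 in KO, and 104 and 32.4 in Rescue, and its KO minus WT fold of 0.89 did not pass (edgeR adjusted p = 0.0903). Aqp3, of skin and gut, fell by 1.60 ± 0.43 (edgeR adjusted p = 0.0455). Of the 4, 1 was called higher and 1 lower for KO minus WT, beside 33% of all genes called and 16.8% called higher. The higher one was Aqp5, which was chosen with its levels known, so this count carries no weight for the list.

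**Figure D5:**
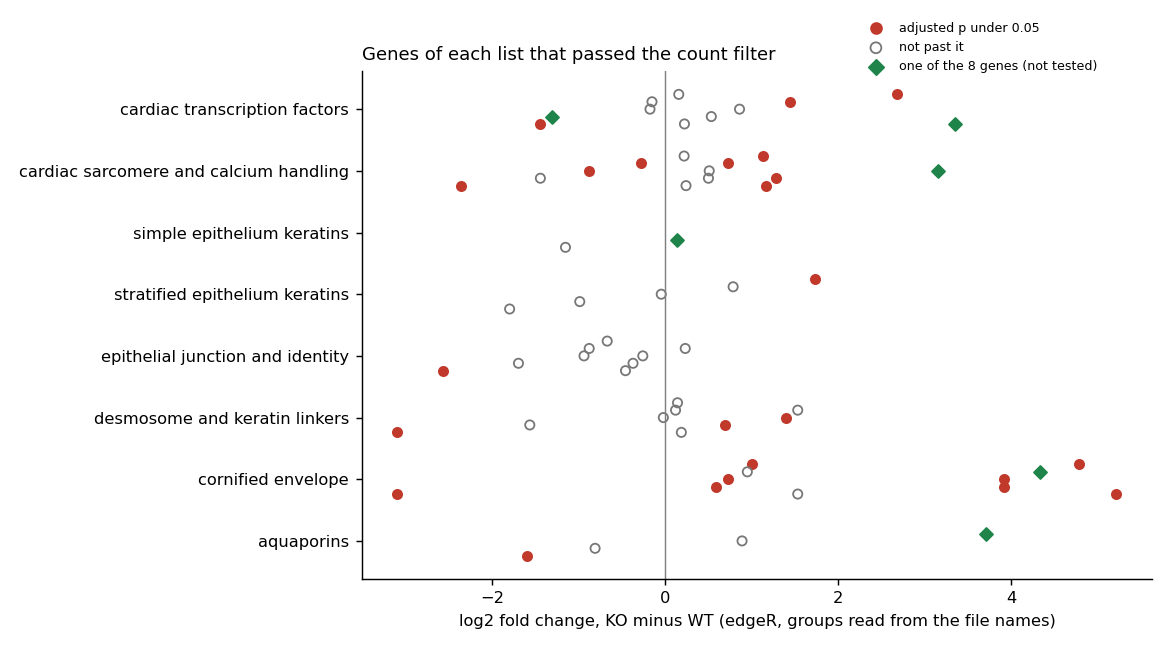
Log2 fold of KO minus WT for each tested gene of 8 lists (edgeR, groups read from the file names); filled red circles passed an adjusted p of 0.05, open circles did not, green diamonds are the genes chosen here, and Krt17, with 0 counts in both KO libraries, is left out. In the cornified envelope list, the points of Sprr2k, Lor, Sprr2a1 and Sprr2a2 rest on 0 to 2 counts in each WT library, and the cardiac and keratin lists spread to both sides.

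Genes whose pattern over the 6 libraries was most like each of the 8 were named by Pearson's r of log2(CPM + 1), among 976 genes that ranged over at least 2 log2 units. The 6 points share lines and are not independent, so r is a description. Gata4 was most like Pax3 (0.9957), Olfm1 (0.9937) and the placental growth factor Pgf (0.976). Pax3, a neural crest and muscle progenitor factor, was at 0.36 and 0.10 CPM in WT, 6.64 and 4.91 in KO, and 9.82 and 7.87 in Rescue, so it too stayed up in Rescue.

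For Krt19, genes of like pattern were Plac9 (0.9927) and the smooth muscle calponin Cnn1 (0.991). Sprr1a was most like Coro2a (0.9954), Tnnt2 (0.9758) and Ptbp2 (0.9689), and Tnnt2 was most like Stac (0.9819), Sprr1a (0.9758) and Coro2a (0.9649). Aqp5 was most like Isl1 (0.9695). Gata6 ranged over less than 2 log2 units and was not searched. The 8 genes thus fell into different orders of lines. Rescue lay between WT and KO on the high side for 3, and on the low side for Gata6. Gata4 was high in both edited lines, Krt19 was low in Rescue alone, and Krt8 and Krt18 were near 0.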

How the data were processed

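RNA was prepared with an RNeasy kit and libraries with a SMARTER mRNA-Seq kit, per the labels' protocols. Gene tables of expected counts and TPM were deposited, made with RSEM per the submitters' processing notes. The library named KO came with values per transcript instead, here added up by gene. Per the file headers, a further deposited set holds estimated counts and TPM per gene, reads per junction and psi as a fraction per node. The tool behind it and the genome build are not given in the sources used here; coordinates are those of GENCODE vM21 (GRCm38), whose exons the junctions matched.

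Expected counts were rounded and analysed with edgeR 4.0.16 in R 4.3.3 (TMM factors, filterByExpr, additive model of line and TNF, quasi-likelihood test, Benjamini-Hochberg over 12729 genes). The SE printed after ± equals the fold divided by the square root of F, and restates the test. The script was tested on simulated data. Intervals are exact Poisson intervals at 95% and cover counting error only. Nothing states that libraries came from separate cultures. Alternatives were the labels' groups, DESeq2 1.42.0, other size factors, no filter on low counts, the second set of estimated counts and each library left out. The 8 genes and all gene lists were chosen with earlier results of these data known. Named genes were the 8, the checks of the labels, up to 4 genes per list and direction by KO minus WT fold past the threshold (else the 2 most abundant), defining markers near 0, and the 3 most correlated genes, of which 1 is not reported here. Other genes were named after their values were seen where a count was small. Groups follow the file names rather than the labels. Transcript values of the further set were left out.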

Additional observations from a re-analysis of the deposited data

Results flagged for a closer look

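The TNF response of 3 of the genes pointed in opposite directions in different lines, with a 95% counting interval that left out no change on both sides. The difference between lines was not tested, since each response rests on 1 library with and 1 without TNF, and all groups are those of the file names. Gata6 was at -0.28 on the log2 scale in the line named KO and 0.31 in the line named Rescue. Tnnt2 was at -0.88 in WT, 0.98 in KO and 0.36 in Rescue. Aqp5 was at -1.25 in WT, 0.20 in KO and -1.66 in Rescue.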

How the results depend on the processing

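The depth of 19598773 to 21626838 counts per library left Krt8 and Krt18 too low for any direction, and 1 library per group left no spread between cultures. No paired analysis was possible because each group has 1 library and so no replicate numbers to pair; the line term of the model already compares TNF within lines. With the labels' groups edgeR called 0 genes for TNF, KO minus WT, Rescue minus KO and Rescue minus WT (491, 29, 27 and 91 at an unadjusted p under 0.05), and DESeq2, added after seeing the data, called 93, 0, 3 and 9. The labels' groups turned the sign of KO minus WT for Gata6 (0.21), Tnnt2 (-1.98), Krt19 (-3.13), Sprr1a (-2.33) and Aqp5 (-1.0), of Rescue minus KO for Gata6 (-0.35), Tnnt2 (2.19), Krt19 (0.33), Sprr1a (3.37) and Aqp5 (2.21), and of TNF for Gata4 (2.35), Gata6 (-0.68) and Aqp5 (1.84). The second quantification turned TNF for Gata6 (-0.01).

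With 1 library left out, 1 residual degree of freedom remained and the lone library of a line was assumed to vary like the others. The counts then ran from 3 to 3744 for TNF, 1075 to 4048 for KO minus WT, 0 to 2716 for Rescue minus KO and 0 to 4581 for Rescue minus WT, where the main counts were 2802, 4204, 2601 and 3128. The lowest came without either library named Rescue: for Rescue minus KO, 0 by edgeR with 2424 and 2275 at an unadjusted p under 0.05, and for Rescue minus WT, 0 with 2572 and 2721. Without either library named WT, the counts were 903 and 931 for TNF, 1998 and 2622 for KO minus WT, and 1165 and 1754 for Rescue minus WT. Signs turned for Gata6 under TNF (range -0.10 to 0.18), Tnnt2 under TNF (-0.12 to 0.71) and Krt19 for KO minus WT (-0.48 to 0.77). Other folds kept their sign but moved in size, among them Aqp5 for Rescue minus KO (-2.49 to -0.78) and Tnnt2 for Rescue minus WT (0.58 to 2.17). At 10 reads instead of 20, 13 splicing nodes were counted in place of 7, and 1 had a psi range of 0.1 or more. DESeq2, the other size factors, no filter and the second quantification kept every count within 1.5 times. Where a value changed, the cause was not tested.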

Other observations

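TNF changed some AP-1 factors and epithelial genes. Of 9 AP-1 factors tested, 3 rose with TNF over the 3 lines named by the files and 0 fell, beside 1427 risen and 1375 fallen of all 12729 genes. Fosl1 rose by 1.75 (edgeR adjusted p = 0.00658), from 32.5 to 100 CPM in WT, 33.1 to 135 in KO and 40.7 to 124 in Rescue. Junb rose by 1.94 and Jun by 1.24. Of 9 epithelial junction and identity genes tested, 1 rose and 3 fell. The epithelial master factor Trp63 fell by 3.27 (edgeR adjusted p = 0.00971), from 8.99 to 0.58 CPM in WT, 5.61 to 0.96 in KO and 2.84 to 0.25 in Rescue. Cldn1, a tight junction protein, fell by 1.62 (edgeR adjusted p = 0.036), while Cgn, another one, rose by 3.55 (edgeR adjusted p = 0.014). Grhl2, Grhl3, Ovol1 and Klf5 did not pass.

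Of 9 desmosome and keratin linker genes tested, 3 were called for KO minus WT, close to the 33% of all genes called. Of these, 2 were higher in KO than in WT, Pkp1 (1.40 ± 0.21, edgeR adjusted p = 0.0107) and Pkp2 (0.69 ± 0.19, edgeR adjusted p = 0.0446), and 1 was lower, Ppl. Pkp2, the plakophilin of heart and simple epithelia, was at 10.4 and 10.9 CPM in KO and 1.91 and 2.52 in Rescue. The desmosomal cadherins Dsg2 and Dsc2, which Pkp2 works with, had 3 counts or fewer in every library. Of 4 skeletal troponins 1 was tested, Tnnt3, which did not pass for KO minus WT (edgeR adjusted p = 0.0623). Of 13 endoderm and pluripotency markers 8 had 3 counts or fewer in every library, Sox17, Sox2 and Pou5f1 among them.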
